A study of Mus musculus with 2 samples.

Results

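The genes described here are the miR-99, miR-100 and miR-125 genes of the mouse, Mir99a, Mir99b, Mir100, Mir125a, Mir125b-1 and Mir125b-2. They were chosen by name, as members of related microRNA families, and all 6 were found among the 1973 microRNA genes of the deposited tables. The tables come from whole lung of B6NCrl embryos at day 15.5, with males and females mixed, labelled healthy and with no treatment or mutation named. Lungs of 78 embryos were pooled for replicate 1 and those of 62 embryos for replicate 2, and the labels give both pools the same donor identifier. These 2 libraries form the only group, so levels and ratios within the lung are described and no condition is compared.

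MicroRNAs are short RNAs cut from hairpin precursors, and they lower the output of messenger RNAs that pair with them, mainly through a seed at bases 2 to 8. The miR-125 type is the vertebrate counterpart of lin-4, the microRNA of Caenorhabditis elegans that sets the timing of larval development, and Lin28 messenger RNAs are among its known targets. The miR-99 type, which includes miR-100, is known for repressing the growth regulator mTOR. In mammals genes of both types lie in the same neighbourhoods as genes of the let-7 family, whose maturation Lin28 proteins block.

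The 6 genes encode 5 distinct sequences on the 5′ arm of the hairpin. They are printed here from RefSeq on GRCm38.p6, the assembly that mm10 names, because they show the division of the genes by seed. The seed is in capitals.
miR-99a-5p: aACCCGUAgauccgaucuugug
miR-99b-5p: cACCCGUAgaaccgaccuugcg
miR-100-5p: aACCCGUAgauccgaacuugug
miR-125a-5p: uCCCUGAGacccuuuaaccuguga
miR-125b-5p: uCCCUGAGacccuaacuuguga
Mir99a, Mir99b and Mir100 share the first seed, and no other gene of the RefSeq table has it on a mature product. With positions counted from 1 at the 5′ end and the base of miR-99a-5p given first, miR-100-5p differs at 1 of 22 positions (U16A) and miR-99b-5p at 4 (A1C, U11A, U16C and U21C). Mir125a, Mir125b-1 and Mir125b-2 share the second seed, and miR-125a-5p has the same first 13 bases as miR-125b-5p. The sequence of miR-125b-5p is listed for both Mir125b-1 and Mir125b-2, so the whole 5′ product of these genes is identical. Their 3′ arms are not, and they are shown with the same bases in capitals.
miR-125b-1-3p: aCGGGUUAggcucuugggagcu
miR-125b-2-3p: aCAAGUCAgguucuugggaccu
The longest run of bases that these 3′ arms share is 8. The tables count a read for a precursor and not for an arm, so they do not state the arm of a counted read.

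Counts were taken from reads on the annotated strand and scaled to counts per 1000000 gene counts of the library (CPM). The libraries held 5354530 and 6489390 gene counts, so 1 count equalled 0.187 CPM in replicate 1 and 0.154 CPM in replicate 2. Reads with more than a single mapping place made up 31.4% and 30.6% of all reads, stand on a separate summary line, and were assumed not to be counted for any gene. Reads of miR-125b-5p can fall there, so the values of Mir125b-1 and Mir125b-2 are uncertain and may be too low. By that assumption, reads of the whole miR-125b-5p sequence are not among the counts of these genes. Their counts then hold other reads, such as those of the 3′ arms. Folds over the Mir125b genes thus rest on a part of their reads. In whole tissue, fewer cells of a type and less RNA per cell cannot be told apart. The 11 markers of lung epithelium, endothelium and mesenchyme ranged in mean level between 855 CPM (Mir200a) and 79294 CPM (Mir143), with endothelial Mir126a at 67953 ± 1347 CPM. The 11 markers of liver, nervous system, striated muscle and blood reached at most 667 CPM (Mir223), with Mir208b and Mir208a of heart at 524 ± 361 and 414 ± 225 CPM and Mir122 of liver at 374 ± 136 CPM (SD, n = 2). The neural Mir124a-1 and Mir9-2 had 0 counts, which was not read as absence because their mature products come from several genes. Intervals given here are computed from read counts, so they describe counting error alone and not the spread between pools or preparations. No molecular identifiers are recorded for the reads, so reads and not molecules were counted.

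Together the 6 genes took 7.07% of the gene counts in replicate 1 and 6.36% in replicate 2, a mean of 6.71% ± 0.504 (SD, n = 2). The exact binomial 95% intervals were 7.05% to 7.09% in replicate 1 and 6.34% to 6.38% in replicate 2. The libraries thus differed by more than counting error. The 6 genes together averaged 67139 ± 5037 CPM, against 79294 ± 3771 CPM for Mir143, the most abundant single gene. Within the 6, Mir99a held 60.8% ± 1.60 of the reads, Mir99b 27.5% ± 1.76, Mir100 5.65% ± 0.334 and Mir125a 5.28% ± 0.0843. Mir125b-2 held 0.467% ± 0.0592 and Mir125b-1 0.335% ± 0.0286 (SD, n = 2 for each).

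Mir99a had 43797 CPM in replicate 1 and 37949 CPM in replicate 2, a mean of 40873 ± 4135 CPM (SD, n = 2), and ranked 7 of all genes in each library. Mir99b, the gene with the 4 differences from miR-99a-5p, had 18531 and 18244 CPM, a mean of 18388 ± 203 CPM, and ranked 14 in each library. Mir100, whose 5′ product differs from that of Mir99a at a single base, had 4160 and 3441 CPM, a mean of 3801 ± 509 CPM. Among these genes of 1 seed, the values of the libraries did not overlap. Mir99a exceeded Mir99b by 2.22-fold (log2 ratio 1.15 ± 0.13) and Mir100 by 10.8-fold (log2 ratio 3.43 ± 0.05), and Mir99b exceeded Mir100 by 4.84-fold (log2 ratio 2.28 ± 0.18). The fold is that of the mean CPM, and the log2 ratio was taken within each library (mean ± SD, n = 2). How reads with a mismatch were placed is not stated, so whether reads passed between Mir99a and Mir100 is not known.

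Mir125a, the miR-125 type gene with a 5′ product of its own, had 3690 and 3394 CPM, a mean of 3542 ± 209 CPM (SD, n = 2). Mir125b-2 had 301 and 324 CPM, a mean of 312 ± 16.2 CPM. Mir125b-1 had 222 and 226 CPM, a mean of 224 ± 2.37 CPM. The counts behind these last values were 1610 and 2100 for Mir125b-2 and 1190 and 1464 for Mir125b-1. Among counted reads, Mir125b-1 was lower than Mir125b-2 in both libraries, with a log2 ratio of -0.48 ± 0.06. Reads of their shared 5′ product were assumed not to be counted, so this ratio may not be that of their whole output. Mir125a exceeded Mir125b-2 by 11.3-fold (log2 ratio 3.50 ± 0.16) and Mir125b-1 by 15.8-fold (log2 ratio 3.98 ± 0.10), folds that are uncertain because of the shared 5′ sequence.

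**Figure D1:**
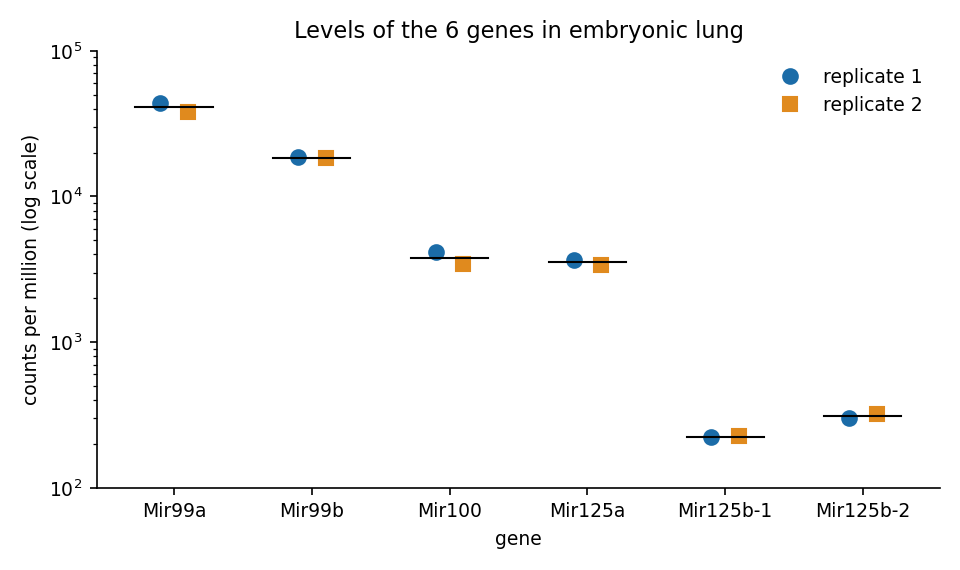
CPM (log scale) of the 6 genes, with a circle for replicate 1, a square for replicate 2 and a line at the mean. Mir99a (mean 40873 CPM) and Mir99b (18388 CPM) stand highest, Mir100 (3801 CPM) and Mir125a (3542 CPM) overlap, and Mir125b-2 (312 CPM) and Mir125b-1 (224 CPM) stand lowest. The values of the Mir125b genes may be too low because of their shared 5′ sequence.

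Across the 15 pairs of the 6 genes, the values of the libraries did not overlap in 14. The exception was Mir100 against Mir125a, where Mir100 was higher within each library (log2 ratios 0.17 and 0.02) but the mean ratio was below its SD (0.10 ± 0.11). The order of the mean levels was Mir99a, Mir99b, Mir100, Mir125a, Mir125b-2 and Mir125b-1, with Mir100 and Mir125a not separated beyond the spread between libraries. The last places, and the pairs that include a Mir125b gene, hold for counted reads. They are uncertain because reads of the shared 5′ product were assumed not to be counted.

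The genes nearest in level over the 2 libraries were found for each of the 6. Mir99a stood below Mir335, a microRNA from an intron of Mest, at 55222 ± 1165 CPM, and above Mir10a, a microRNA of the HOXB cluster, at 32640 ± 884 CPM. Mir99b lay below Mirlet7d (21967 ± 764 CPM) and above Mir30e (15951 ± 1565 CPM). For Mir99a and Mir99b the values of both neighbours lay outside those of the gene. Mir100 lay between Mir296 (3870 ± 26.5 CPM) and Mir342 (3713 ± 177 CPM), and Mir125a between Mir541 (3635 ± 50.8 CPM) and Mir18 (3538 ± 105 CPM). Mir125b-2 lay between Mirlet7a-1 (328 ± 17.4 CPM) and Mir34a (309 ± 12.1 CPM), and Mir125b-1 between Mir185 (229 ± 7.23 CPM) and Mir24-2 (222 ± 25.4 CPM). Mir100, Mir125a and the Mir125b genes overlapped with both of their neighbours (SD, n = 2), so their place among all genes is not fixed to a single rank. The Mir125b genes and Mirlet7a-1 share their mature product with other genes. Their levels and ranks are thus uncertain also because reads mapped to several places were assumed not to be counted. Mir100 ranked 43 in replicate 1 and 51 in replicate 2, and Mir125a ranked 49 and 54.

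Summed by seed, Mir99a, Mir99b and Mir100 took 6.65% and 5.96% of the counts, a mean of 6.31% ± 0.485. Mir125a, Mir125b-1 and Mir125b-2 took 0.421% and 0.394%, a mean of 0.408% ± 0.0191 (SD, n = 2). The miR-99 seed genes thus exceeded the miR-125 seed genes by 15.5-fold, with a log2 ratio of 3.98 in replicate 1 and 3.92 in replicate 2. With the 4 values taken as independent, exact 2-sided permutation gave p = 0.333. Exact 2-sided sign flips of the ratio within the 2 libraries, added after seeing the data, gave p = 0.50. Each is the smallest p that its test can give here, so neither could reach 0.05. Reads of miR-125b-5p that mapped to both Mir125b genes were assumed to be missing from this ratio. The sums are of precursor counts, so they can include reads of 3′ arms, which carry other seeds.

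The miR-125 seed is not limited to the miR-125 genes. RefSeq lists 6 genes with it on a mature product, and those outside the family are Mir351, Mir6367 and Mir6394. The product of Mir351, a neighbour of Mir322 on the X chromosome, is set here beside those of the miR-125 genes with the shared seed in capitals.
miR-351-5p: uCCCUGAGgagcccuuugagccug
It has the same first 8 bases as miR-125a-5p and miR-125b-5p and then departs from them. Mir125a, at 3542 ± 209 CPM, stood below Mir351, which had 13435 and 10974 CPM, a mean of 12205 ± 1741 CPM (log2 ratio -1.78 ± 0.12, SD, n = 2). Of the counts of genes with this seed, Mir125a, Mir125b-1 and Mir125b-2 held 21.8% ± 1.30, 1.39% ± 0.179 and 1.94% ± 0.329, and Mir351 held 74.8% ± 1.81. Mir6367 and Mir6394 had 0 counts in both libraries, which allows up to 0.560 CPM in replicate 1 and 0.462 CPM in replicate 2 (the value of 3 counts) for reads that map to 1 place. With these genes added, the miR-99 seed genes exceeded the genes with the miR-125 seed by 3.87-fold (log2 ratio 1.96 ± 0.06). These shares and this fold are of precursor counts, which can include reads of 3′ arms with other seeds. Reads of miR-125b-5p that mapped to both Mir125b genes were assumed to be missing from these shares and this fold. The share of Mir351 and the fold may therefore be too high, by an amount that is not known.

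**Figure D2:**
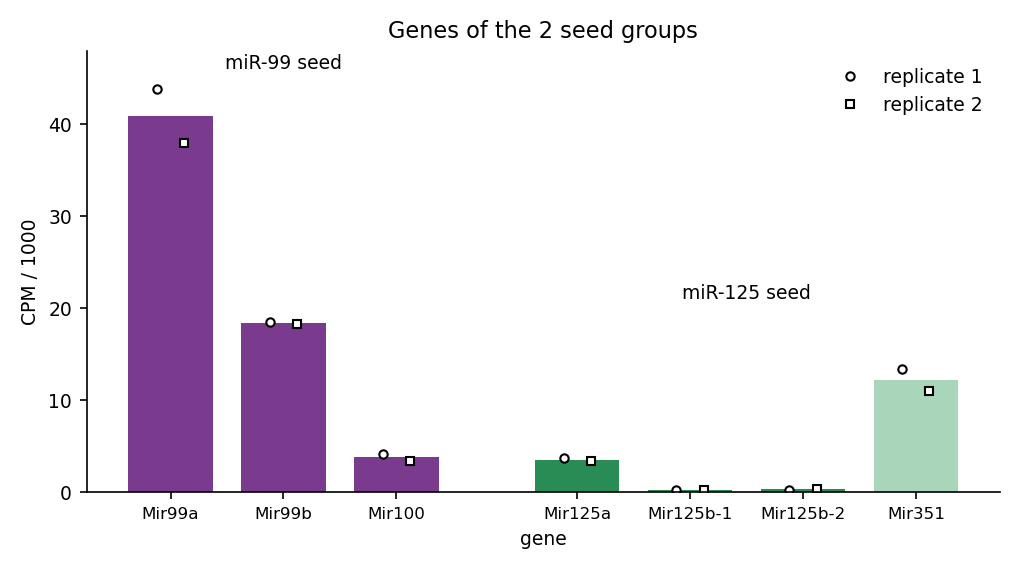
Mean level (bars, CPM divided by 1000, linear axis from 0) and the values of replicate 1 (circles) and replicate 2 (squares) for the genes with the miR-99 seed and the expressed genes with the miR-125 seed. Mir99a is the tallest bar, and Mir351 stands above Mir125a and the Mir125b genes. Reads that mapped to both Mir125b genes were assumed not to be counted, so their bars may be too low.

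Mir10a and Mir10b, from the HOX clusters, are relatives of the miR-99 type. The seed of miR-10a-5p differs from that of the miR-99 type, but it shares a run of 11 bases with miR-100-5p and of 10 with miR-99a-5p.
miR-10a-5p: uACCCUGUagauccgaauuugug
Mir99a had 40873 ± 4135 CPM and Mir10a 32640 ± 884 CPM, a log2 ratio of 0.32 ± 0.19. Mir99b stood below Mir10a (log2 ratio -0.83 ± 0.05). Mir100 exceeded Mir10b, at 1082 ± 130 CPM, by 3.51-fold (log2 ratio 1.81 ± 0.02, SD, n = 2).

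The 6 genes lie at 3 loci, each with a miR-99 type gene first, a let-7 gene in the middle and a miR-125 type gene last, all on the plus strand of mm10. On chromosome 16, Mir99a (ENSMUSG00000065530.1, 77598936 to 77599000) and Mir125b-2 (ENSMUSG00000065472.1, 77646273 to 77646343) lie in introns of Mir99ahg, a long noncoding gene. Mir125b-2 also overlaps an exon of C130023A14Rik on the same strand, and Mir99a is opposite an intron of the protein-coding gene Gm11146. On chromosome 9, Mir100 (ENSMUSG00000093011.1, 41531425 to 41531504) and Mir125b-1 (ENSMUSG00000093354.1, 41581926 to 41582002) lie in introns of the noncoding gene 3110039I08Rik. Mir125b-1 also lies in an exon of the sense-intronic transcript Gm28119, and Mir100 is opposite an exon of Gm48742. On chromosome 17, Mir99b (ENSMUSG00000065396.1, 17830188 to 17830257) lies in an intron of the protein-coding gene Spaca6, and Mir125a (ENSMUSG00000065479.1, 17830812 to 17830879) in a Spaca6 exon that carries no coding sequence or UTR annotation. The coordinates of Mir125a are those of a later version of its identifier, ENSMUSG00000065479.2. The loci differ in compactness. The chromosome 17 locus spans 692 bases, against 47408 on chromosome 16 and 50578 on chromosome 9, where the miR-125 type gene follows the let-7 gene after 46522 and 45114 bases. None of the 6 genes had a read on the opposite strand.

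Among counted reads, the miR-99 type gene was the higher of the family's genes at all 3 loci, but by different amounts. At the chromosome 16 locus, Mir99a (40873 ± 4135 CPM) exceeded Mir125b-2 (312 ± 16.2 CPM) by 131-fold, with log2 ratios of 7.19 in replicate 1 and 6.87 in replicate 2. At the chromosome 9 locus, Mir100 (3801 ± 509 CPM) exceeded Mir125b-1 (224 ± 2.37 CPM) by 17.0-fold, with log2 ratios of 4.23 and 3.93. At the chromosome 17 locus, Mir99b (18388 ± 203 CPM) exceeded Mir125a (3542 ± 209 CPM) by 5.19-fold, with log2 ratios of 2.33 and 2.43. The log2 ratios of the 3 loci did not overlap with each other. The first 2 folds rest on genes that share their 5′ product and may be too high, while Mir99b and Mir125a share no mature product with another gene of the RefSeq table. The members of the chromosome 16 locus took 4.12% ± 0.412 of the counts, those of the chromosome 17 locus 2.19% ± 0.0412 and those of the chromosome 9 locus 0.402% ± 0.0506 (SD, n = 2).

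The let-7 genes between them were set beside the family's genes. On chromosome 9, Mir100 exceeded Mirlet7a-2 (268 ± 20.1 CPM) by 14.2-fold (log2 ratio 3.82 ± 0.09), and Mir125b-1 was lower than Mirlet7a-2 (log2 ratio -0.26 ± 0.12). On chromosome 16, Mir125b-2 exceeded Mirlet7c-1 (174 ± 8.71 CPM) by 1.80-fold (log2 ratio 0.85 ± 0.15). Mature let-7a and let-7c come from several genes, so the values of Mirlet7a-2 and Mirlet7c-1 are uncertain in the same way as those of the Mir125b genes. On chromosome 17, Mirlet7e has no row of its own in the tables. Its interval, 17830352 to 17830444, lies within Gm25927, a gene annotated on the minus strand from 17830343 to 17830459. Gm25927 had 0 counts on its own strand and 32065 and 39337 reads on the strand of Mirlet7e. On the CPM scale those reads came to 5988 and 6062, a mean of 6025 ± 51.9. Mir99b exceeded them by 3.05-fold (log2 ratio 1.61 ± 0.03), and Mir125a was lower than them (log2 ratio -0.77 ± 0.10, SD, n = 2). The use of these reads in a ratio was chosen after their values were seen.

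**Figure D3:**
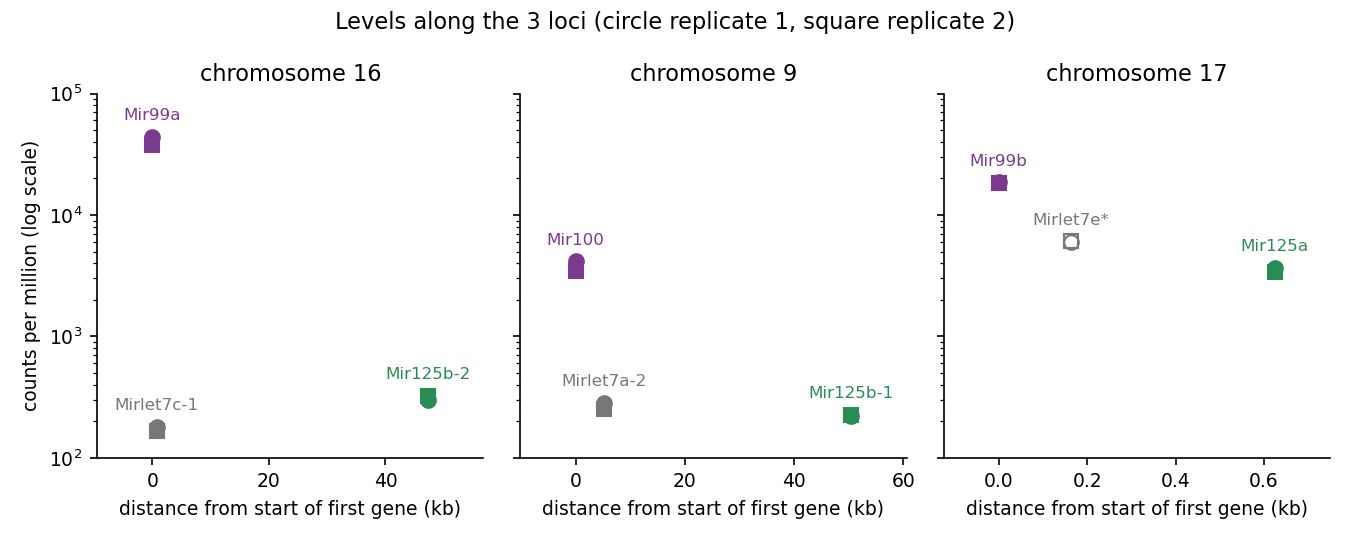
CPM (log scale) along the 3 loci against distance in kb from the start of the first gene, with circles for replicate 1 and squares for replicate 2. The distance axis of chromosome 17 is narrower. Purple marks the miR-99 type, green the miR-125 type and grey the let-7 genes, and the open symbols (Mirlet7e*) are reads opposite Gm25927. Among counted reads, the miR-99 type gene is the highest point at each locus. Reads that mapped to several places were assumed not to be counted. The points of Mir125b-1, Mir125b-2, Mirlet7a-2 and Mirlet7c-1 may therefore be too low.

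The libraries were set against each other to show how well each gene's level was fixed. Mir99a was 1.15-fold and Mir100 1.21-fold higher in replicate 1 than in replicate 2, with 95% counting intervals of 1.15 to 1.16 and 1.19 to 1.23. Mir125a was 1.09-fold higher in replicate 1, and Mir99b 1.02-fold. For Mir125b-2 the ratio was 0.929 (0.870 to 0.992) and for Mir125b-1 0.985 (0.912 to 1.06). The interval left out 1 for 5 of the 6 genes, beside 44.8% of the 357 genes with at least 10 counts in both libraries. Among the 155 genes at least as abundant as Mir125b-1, where counting error is smaller, that share was 69.7%. None of the 6 genes differed by 1.5-fold or more, beside 9.80% of the 357 genes (35 genes), of which 3 lay among the 155 abundant ones. Those were Mir122 of liver (1.69-fold higher in replicate 1) and the heart genes Mir208a (2.25-fold higher) and Mir208b (a ratio of 0.345). The part of such other tissue in the differences of the 6 genes was not tested. The median difference was 1.08-fold over the 6 genes, against 1.10-fold over the 357 and 1.06-fold over the 155. Mir100 differed by more than 74.5% of the 357 genes, Mir99a by more than 63.6% and Mir99b by more than 9.80%. Each pool was sequenced once, so no p was computed for these ratios, and whether the difference arose in the pools or in the library preparation cannot be told apart.

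**Figure D4:**
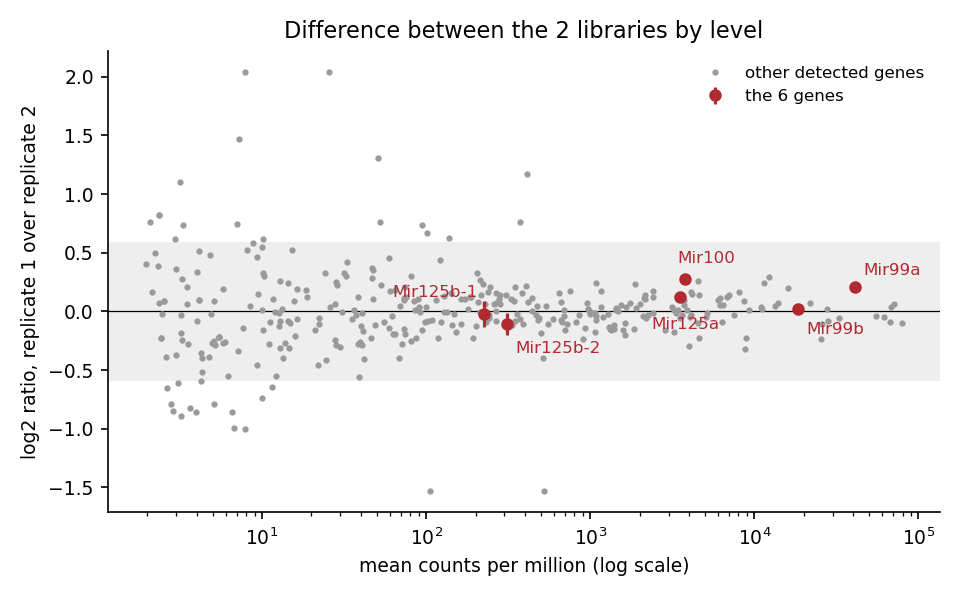
Log2 ratio of replicate 1 over replicate 2 against mean CPM (log scale) for 357 genes with at least 10 counts in both libraries. Red points with 95% counting intervals are the 6 genes, grey points the others, and the shaded band marks differences under 1.5-fold; all 6 genes lie within the band.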

How the data were processed

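Small RNA under 30 nt from 2 pools of embryonic lung was sequenced, per the labels. The deposited values are raw read counts per microRNA precursor gene, made by the authors on mm10 with annotation M4, per the readme files. The aligner, counter, trimming and filters are not stated there or in the labels. Each table holds 1973 genes and counts without regard to strand, on the annotated strand and on the opposite strand, a reading taken from their totals. The 4 summary lines (unmapped, several places, no gene, ambiguous) held 53.1% and 52.0% of the reads and stayed out of library sizes.

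CPM was computed from annotated-strand counts, with SDs over the 2 biological replicates, for which no batch is labelled. GENCODE M21 (GRCm38) gave gene names and coordinates, and 1894 of the identifiers matched without version. Sequences came from RefSeq, where all 6 genes matched. The genes named were the members, the other genes of their loci, genes sharing a seed, Mir10a and Mir10b, the nearest genes in level, and markers. Members and lists were chosen with earlier results of these data known. Ratios of the libraries have exact binomial 95% intervals. The procedure was tested on counts simulated with counting error and no spread between pools, so the test does not cover that spread. Python 3.11.15, numpy 2.4.6, pandas 2.3.3, scipy 1.17.1, matplotlib 3.10.9, R 4.3.3, edgeR 4.0.16 (TMM) and DESeq2 1.42.0 (size factors) were used. Alternatives changed the strand rule, the denominator, the minimum count, the scaling and the replicates and genes included.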

Additional observations from a re-analysis of the deposited data

Results flagged for a closer look

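A signal stood in reads outside the annotated-strand counts. On the strand opposite Gm25927, where Mirlet7e lies between Mir99b and Mir125a, reads came to 5988 and 6062 CPM, a mean of 6025 CPM, against a limit of 0.560 and 0.462 CPM for a count of 0. They made up 20.0% of all opposite-strand gene reads in replicate 1 and 20.5% in replicate 2, and ranked 3 among the genes by such reads.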

How the results depend on the processing

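Per 1000000 of all reads, summary lines included, the median level of the 6 genes was 1740 in place of 3671 CPM and their share 3.18% in place of 6.71%. With Mir143 left out of the total the share was 7.29%. The miR-99 seed genes over the miR-125 seed genes gave a log2 ratio of 4.15 without the Mir125b genes and 1.96 with the other genes of that seed, in place of 3.95. With no minimum count, 181 of 590 genes differed by at least 1.5-fold between the libraries in place of 35 of 357. Counting without regard to strand left ratios between the 6 genes identical, since they have no opposite-strand reads, and leaving out a replicate gives the value of the other library. TMM and DESeq2 scaling moved the median library ratio by -0.01 and 0.01 (log2). No paired analysis between groups was possible because there is 1 group, and ratios of genes were taken within each library. Depth bears most on Mir125b-1 and Mir125b-2, the members with the fewest counts (1190 to 2100 per library). Reads mapped to several places limit the same genes, and their number per gene is not known.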
